A study of Eucalyptus grandis
Pisolithus microcarpus and Eucalyptus grandis with 23 samples.

Results

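The 9 genes described here encode core enzymes of lignin biosynthesis in the tree Eucalyptus grandis. They were taken from a list of 10 loci known as lignin genes in that genome, of 36376 genes in the deposited tables. The list names a pair of cinnamate 4-hydroxylase genes (C4H1, Eucgr.J01844.1, and C4H2, Eucgr.C00065.1), one 4-coumarate:CoA ligase gene (4CL1, Eucgr.C02284.1) and a pair of caffeoyl-CoA O-methyltransferase genes (CCoAOMT1, Eucgr.I01134.1, and CCoAOMT2, Eucgr.G01417.1). It also names one cinnamoyl-CoA reductase gene (CCR1, Eucgr.J03114.1), a pair of ferulate 5-hydroxylase genes (F5H1, Eucgr.J02393.1, and F5H2, Eucgr.I02371.1) and one cinnamyl alcohol dehydrogenase gene (CAD2, Eucgr.G01350.1). The tables give gene identifiers without names, so the names come from the list.

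Lignin is the phenolic polymer that stiffens and seals the walls of xylem vessels and other thickened cells. Its building blocks, the monolignols, are made from cinnamic acid by hydroxylation (C4H), activation to a CoA ester (4CL), methylation of the ring (CCoAOMT) and reduction of the side chain (CCR, then CAD). F5H opens the branch from the guaiacyl type of unit to the syringyl type, which is abundant in the wood of flowering trees.

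RNA of whole roots was sequenced as read pairs from E. grandis seedlings grown in Petri dishes for a month. The roots grew either alone (control roots, axenic) or under a square of mycelium of Pisolithus microcarpus, a fungus that forms ectomycorrhizas on eucalypt roots, of strain SI-9 or strain SI-12. Air held 400 ppm or 650 ppm CO2 throughout, which gave 6 groups. There were 6 control libraries at 400 ppm, 5 control libraries at 650 ppm, and 3 libraries for each strain at each CO2 level. The comparisons address what elevated CO2, each strain, and both together do to root transcripts. Roots were harvested whole, so fewer lignifying cells and less RNA per cell cannot be told apart. Defining markers of root tissue were not checked, because none of the 36376 identifiers matched the annotation at hand.

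Gene reads per library ran from 4497662 to 30210474, and the lowest count of any of the 9 genes in any library was 156, so counting error was small. Libraries of a group were not equally distinct, although the labels call them biological replicates. By the spread of log ratios between libraries, expressed as a coefficient of variation, they fell into 9 sets, with 0.0806 to 0.196 inside a set and at least 0.206 between sets of the same group. Control roots at 400 ppm formed 2 sets (libraries 1 to 3 and 4 to 6), as did control roots at 650 ppm (libraries 1 and 2, and 3 to 5) and SI-9 roots at 650 ppm (libraries 1 and 2, and 3). Each of the other 3 groups was 1 set. The control sets follow the library numbers in the deposited tables, which run from 1 to 12 for all SI-9 libraries and from 13 to 24 for all SI-12 libraries, with controls in both ranges. SI-9 library 2 at 400 ppm stood apart from libraries 1 and 3 of its group and was placed with them just under the limit of 0.2. Its coefficient of variation was 0.176 and 0.196 to those libraries and 0.219 to 0.230 to the 3 SI-12 libraries at 400 ppm, the smallest values between libraries of different groups, while SI-9 libraries 1 and 3 stood at 0.337 to 0.362 from the latter. Whether this library was mixed or mislabelled was not tested, and SI-9 means at 400 ppm and differences between the strains there rest in part on it. The p-values from 23 libraries therefore rest on the spread between libraries, which inside a set may be technical. Each count of calls below is followed by the count with sets as replicates. Adjusted p-values and standard errors of single genes treat libraries as replicates unless sets are named, so the same limit holds for them.

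Levels are given as RPKM, reads normalised for gene length and for the gene reads of the library, scaled here by TMM factors so that libraries can be compared. The family was strongly expressed: 8 of the 9 genes lay above at least 94.6% of the 27386 genes tested in mean RPKM, and C4H2 lay above 74.2%. At least 99.9% of the reads of each gene matched that gene only. The sum of the 9 genes took 0.411% ± 0.0153 (SD, n = 6) of gene reads in control roots at 400 ppm and 0.571% ± 0.0519 (n = 5) at 650 ppm. It took 0.325% ± 0.0120 and 0.343% ± 0.0336 in SI-9 roots at 400 and 650 ppm (n = 3 each). In SI-12 roots it took 0.294% ± 0.0261 and 0.324% ± 0.0227 (n = 3 each). The share was thus highest in control roots at elevated CO2, where every library was above all those of the other groups. The mean was lowest in SI-12 roots at 400 ppm, with libraries from 0.264% to 0.315%. That range overlapped those at 650 ppm of SI-12 roots (0.300% to 0.345%) and SI-9 roots (0.304% to 0.366%).

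**Figure D1:**
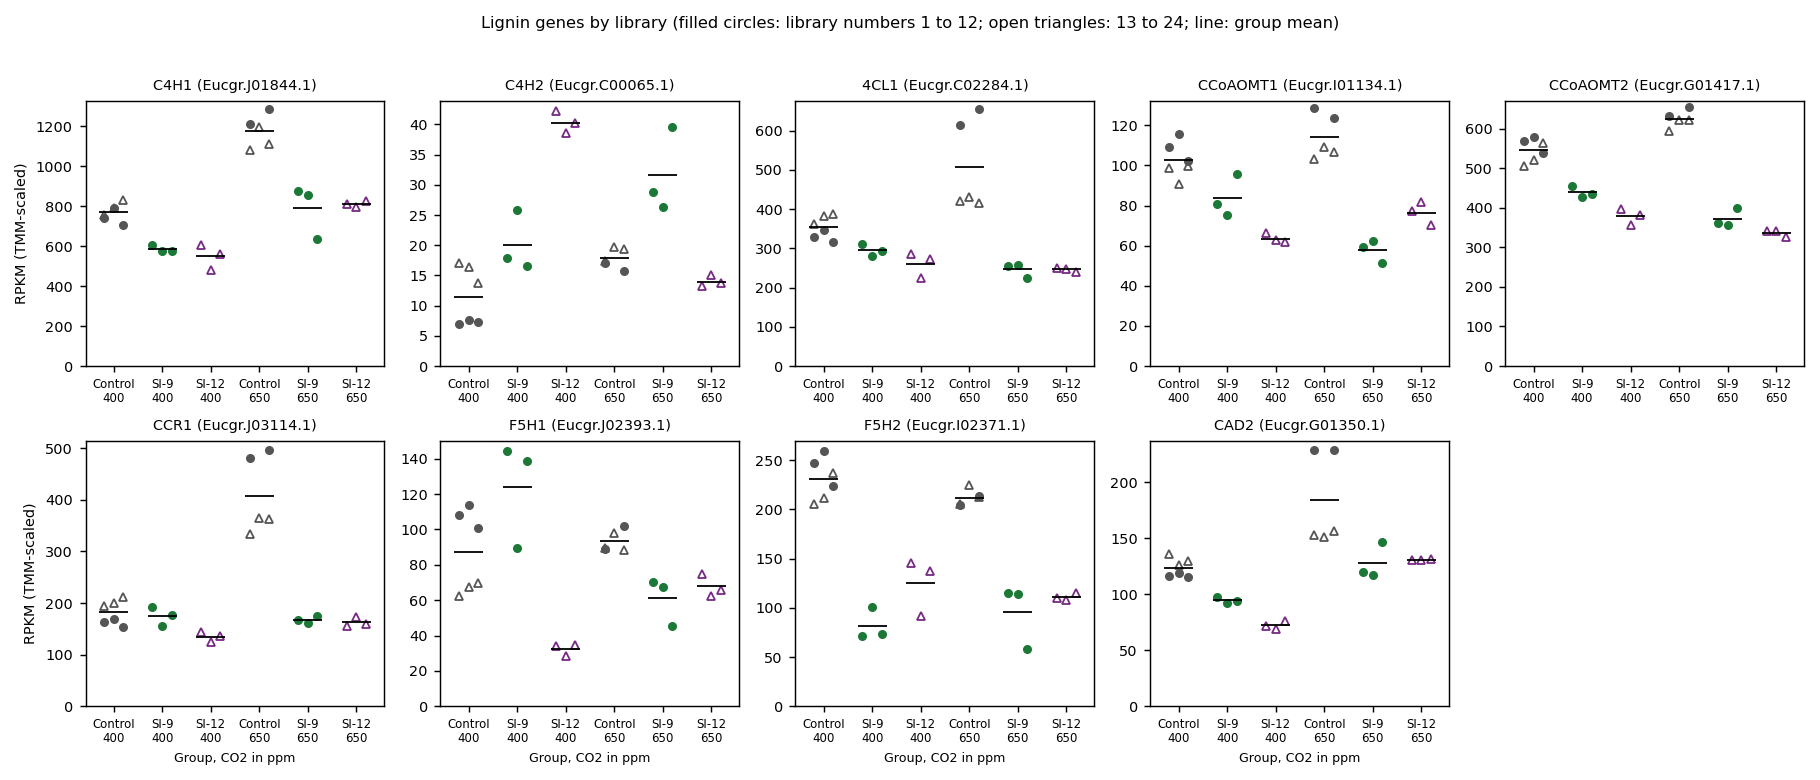
TMM-scaled RPKM of each of the 9 lignin genes (vertical axes, from 0) in every library of the 6 groups (horizontal axes), with filled circles for library numbers 1 to 12, open triangles for 13 to 24 and a line at the group mean. CCR1 in control roots at 650 ppm sits at 334 to 496, above every other library. C4H2 has its highest group mean in SI-12 roots at 400 ppm, at 38.5 to 42.2, a range that SI-9 library 3 at 650 ppm (39.5) enters.

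In every group C4H1 had the highest mean RPKM and CCoAOMT2 the next, and C4H2 had the lowest in 5 groups. In SI-12 roots at 400 ppm the lowest was F5H1, at 32.3 ± 3.57 (SD, n = 3), below C4H2 at 40.3 ± 1.84 in each of the 3 libraries. Some neighbours in the order changed places between libraries: F5H1, CAD2, CCoAOMT1 and F5H2 in SI-9 roots at 400 ppm, CCR1 and F5H2 in SI-12 roots at 400 ppm, F5H1 and CCoAOMT1 in SI-9 roots at 650 ppm, and CCoAOMT2 with 4CL1 and F5H2 with CAD2 in control roots at 650 ppm.

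Elevated CO2 raised 6 of the 9 genes in control roots and lowered none, by edgeR's quasi-likelihood test on 23 libraries with Benjamini-Hochberg adjustment over all tested genes at 0.05. Of all tested genes, 20% were called higher and 22.5% lower. The genes that rose were C4H1, C4H2, 4CL1, CCoAOMT2, CCR1 and CAD2, and those not called were CCoAOMT1, F5H1 and F5H2. The median log2 fold change of the 9 was 0.52, against -0.03 for all tested genes, and 5 of the 9 had no overlap between the groups, against 28.5% of all tested genes. With sets as replicates edgeR called 0 of the 9, with 0.318% of all tested genes called. At an unadjusted p under 0.05 it gave 4 of the 9, a count not made over all tested genes. DESeq2 on sets called 2, C4H1 (adjusted p = 0.0209) and CCR1 (1.09e-05), with 10.3% of all tested genes called. Where SI-9 library 2 at 400 ppm was a set of its own, edgeR called CCR1 alone of the 9 (adjusted p = 0.0401), with 1.64% of all tested genes called.

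At 400 ppm, SI-12 roots had 8 of the 9 genes lower than control roots and 1 higher, with 17.8% of all tested genes called lower and 14.5% higher. The 1 that rose was C4H2. All 9 had no overlap with the controls, against 32% of all tested genes, and the median log2 fold change was -0.53, against -0.04. Leaving out SI-12 library 2 took 4CL1 and CCR1 below the threshold. Counting each set as 1 replicate, edgeR called 0 of the 9, with 0.011% of all tested genes called. It gave 5 of the 9 at an unadjusted p under 0.05, a count not made over all tested genes. DESeq2 on sets called 3 of them, C4H2 (adjusted p = 0.0126), CCoAOMT2 (0.0474) and F5H1 (0.0117), with 5.21% of all tested genes called.

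SI-9 roots at 400 ppm had 5 of the 9 genes lower than the same controls and 2 higher, with 11.8% of all tested genes called lower and 11.3% higher. C4H1, CCoAOMT1, CCoAOMT2, F5H2 and CAD2 fell, C4H2 and F5H1 rose, and 4CL1 and CCR1 were not called. The median log2 fold change was -0.29, against -0.01 for all tested genes, and 5 of the 9 had no overlap, against 23%. This count depended on single SI-9 libraries: it was 4 without library 1, 4 with library 2 left out and 5 with library 3 left out. On sets edgeR called 0 of the 9, with 0% of all tested genes called. At an unadjusted p under 0.05 it gave 1 of the 9, a count not made over all tested genes. DESeq2 on sets called F5H2 alone (adjusted p = 0.0190), with 1.95% of all tested genes called.

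At 650 ppm the gap to the controls, which are other libraries than those at 400 ppm, had a median log2 fold change of -0.74 in SI-9 roots and -0.58 in SI-12 roots. All tested genes had medians of 0.03 and 0.02. SI-9 roots had 8 genes lower and 1, C4H2, higher, with 17.2% and 19.3% of all tested genes called. SI-12 roots had 7 lower and 0 higher, with 19.7% and 19.9% of all tested genes called, and C4H2 and F5H1 were not called. All 9 genes had no overlap with the controls for either strain, against 37.4% of all tested genes for SI-9 and 49.1% for SI-12. The SI-9 count was 7 without SI-9 library 3, which stood in a set of its own. On sets, edgeR called 0 of the 9 for each strain, with 0.584% (SI-9) and 0.0219% (SI-12) of all tested genes called. At an unadjusted p under 0.05 it gave 6 for SI-9 and 4 for SI-12, a count not made over all tested genes. With SI-9 library 2 at 400 ppm as a set of its own edgeR called 4 for SI-9 (4CL1, CCoAOMT1, CCoAOMT2 and CCR1), with 2.23% of all tested genes called, and 0 for SI-12. DESeq2 on sets called 6 for SI-9, all but C4H2, F5H1 and CAD2, and 3 for SI-12 (4CL1, CCoAOMT2 and CCR1), with 12% and 8.08% of all tested genes called.

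**Figure D2:**
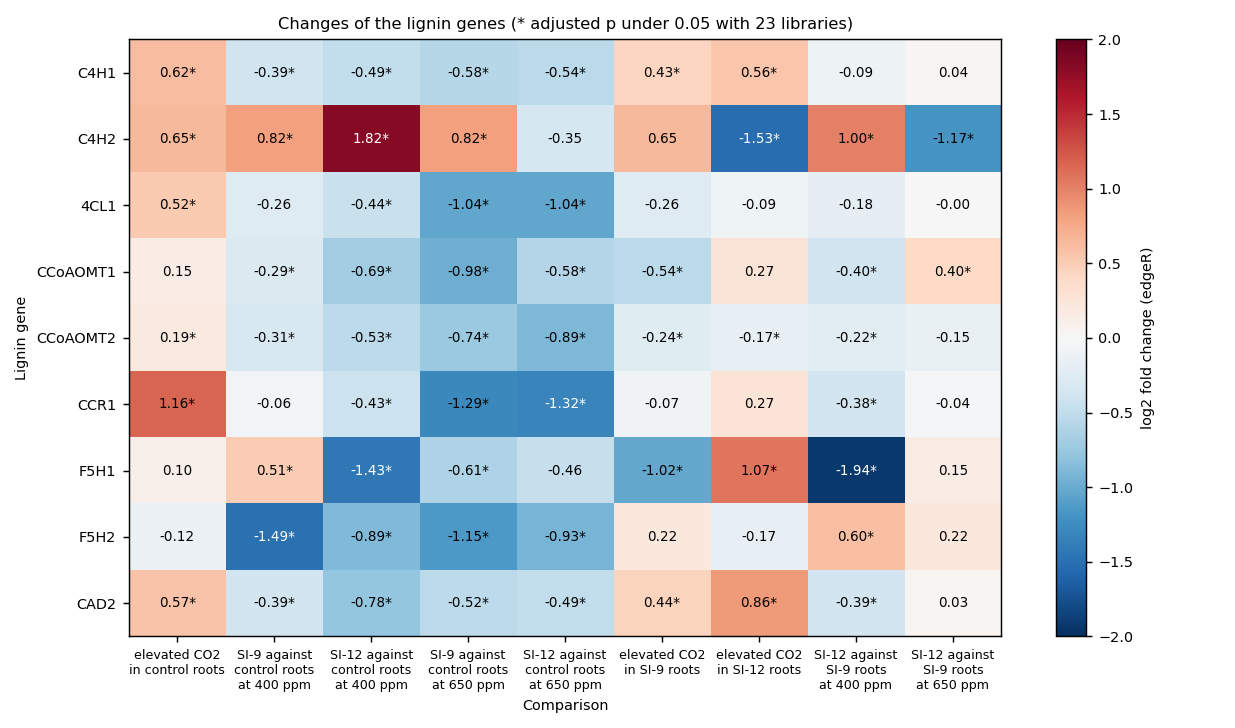
Log2 fold change of each lignin gene (vertical axis) in 9 comparisons (horizontal axis) as colour and number, with an asterisk where the adjusted p was under 0.05 in edgeR's test on 23 libraries. In the comparisons with control roots most cells are below 0, with C4H2 as the gene that stands at 1.82 in SI-12 roots at 400 ppm.

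C4H1 hydroxylates cinnamic acid at the entrance of the pathway and was the most abundant transcript of the family. In control roots at 400 ppm its level ran from 708 to 829.8 RPKM, with a median of 773 over 6 libraries. In control roots at 650 ppm the 5 libraries held 1212, 1289, 1081, 1198 and 1114 RPKM. Elevated CO2 therefore separated the control groups without overlap, by a log2 fold change of 0.62 (SE 0.07, adjusted p = 1.01e-06).

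The 3 SI-9 libraries at 400 ppm held 607, 578 and 575 RPKM of C4H1, and the 3 SI-12 libraries 604, 481 and 564. Both strains were below every control library, with log2 fold changes of -0.39 (SE 0.09, adjusted p = 0.00270) and -0.49 (SE 0.09, adjusted p = 0.000233). At 650 ppm the SI-9 libraries held 877, 857 and 638 RPKM and the SI-12 libraries 814, 794 and 825. These too lay below every control library of that CO2 level, with log2 fold changes of -0.58 (SE 0.09, adjusted p = 4.57e-05) and -0.54 (SE 0.09, adjusted p = 7.69e-05). C4H1 was called higher at elevated CO2 in control, SI-9 and SI-12 roots alike, with log2 fold changes of 0.62, 0.43 (SE 0.10, adjusted p = 0.00322) and 0.56 (SE 0.10, adjusted p = 0.000191), and CAD2 was the other member for which this held. The C4H1 call in SI-9 roots was lost when only the 2 groups compared were fitted (0.42, adjusted p = 0.0679).

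C4H2 encodes the second cinnamate 4-hydroxylase and was far less abundant. In control roots at 400 ppm, libraries 1 to 3 held 6.96 to 7.60 RPKM and libraries 4 to 6 held 13.7 to 17.0, so the control sets did not overlap. The 5 control libraries at 650 ppm held 17.1, 15.8, 17.4, 19.6 and 19.4 RPKM. The rise with CO2 in controls (log2 fold change 0.65, SE 0.21, adjusted p = 0.0167) was 1.18 between libraries numbered 1 to 12 and 0.26 (adjusted p = 0.215) between those numbered 13 to 24. It was not called when only the 2 control groups were fitted (adjusted p = 0.0527).

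The SI-12 libraries held 42.2, 38.5 and 40.2 RPKM of C4H2 at 400 ppm and 13.2, 15.1 and 13.8 at 650 ppm. At 400 ppm they stood above every control library, 3.53-fold over the control mean by the fit (log2 fold change 1.82, SE 0.23, adjusted p = 5.75e-06). Against control libraries of the same number range the difference at 400 ppm was smaller, at 1.36 (adjusted p = 4.74e-06). At 650 ppm the SI-12 libraries stood below every control library without passing the test on 23 libraries (-0.35, SE 0.26, adjusted p = 0.289). Against control libraries of the same number range the difference at 650 ppm passed it, at -0.43 (adjusted p = 0.0375). Within SI-12 roots C4H2 fell 2.88-fold with elevated CO2 (log2 fold change -1.53, SE 0.29, adjusted p = 0.000361), with no overlap.

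The SI-9 libraries held 17.8, 25.9 and 16.6 RPKM of C4H2 at 400 ppm and 28.8, 26.3 and 39.5 at 650 ppm. The excess over controls was 0.82 on the log2 scale at each CO2 level (SE 0.24, adjusted p = 0.0190, and SE 0.25, adjusted p = 0.0124). Against control libraries of the same number range it was 1.47 at 400 ppm and 0.94 at 650 ppm (adjusted p = 7.42e-06 and 0.000804), so the equal values hold for the pooled controls. Fitted on only the 2 groups compared, the difference at 400 ppm was not called (0.82, adjusted p = 0.116). At 400 ppm SI-9 library 3 lay inside the range of the control libraries, and without library 2, the highest, the difference was 0.58 (adjusted p = 0.141). At 650 ppm every SI-9 library was above every control library, and without library 3 the difference was 0.62 (adjusted p = 0.0792).

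4CL1 joins hydroxycinnamic acids to CoA, the step that feeds both monolignols and flavonoids. Its control libraries at 400 ppm ran from 315 to 387 RPKM with a median of 355. At 650 ppm libraries 1 and 2 held 614 and 655 RPKM, and libraries 3 to 5 held 422, 430.0 and 416. All 5 were above every library at 400 ppm (log2 fold change 0.52, SE 0.11, adjusted p = 0.000517), but the rise was 0.94 among libraries numbered 1 to 12 and 0.16 (adjusted p = 0.101) among those numbered 13 to 24.

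In SI-9 roots 4CL1 held 312, 282 and 292 RPKM at 400 ppm and 256, 259 and 225 at 650 ppm. In SI-12 roots it held 285, 225 and 274 RPKM at 400 ppm and 251, 248 and 240.3 at 650 ppm. Against controls at 400 ppm SI-12 roots were lower, with a log2 fold change of -0.44 (SE 0.13, adjusted p = 0.0115) and SI-9 roots differed by -0.26 (SE 0.13, adjusted p = 0.144). Every SI-9 library there was below every control library. That difference was called when only the 2 groups compared were fitted (-0.25, adjusted p = 0.048). It was not called against controls of the same number range (-0.16, adjusted p = 0.157). At 650 ppm the log2 fold change was -1.04 (SE 0.13) for each strain, 2.06-fold lower, with adjusted p of 4.36e-06 for SI-9 and 3.61e-06 for SI-12. That equal value holds for the pooled controls: against those of the same number range 4CL1 was at -1.37 in SI-9 roots and -0.78 in SI-12 roots, both called.

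CCoAOMT1 and CCoAOMT2 methylate caffeoyl-CoA, the step that sets up the guaiacyl ring. CCoAOMT2 was the more abundant: control libraries ran from 505 to 579 RPKM with a median of 551 at 400 ppm, and held 630, 654, 595, 621 and 620.5 at 650 ppm. Its rise with CO2 in controls was small, at 0.19 (SE 0.05, adjusted p = 0.00225), with no overlap. SI-9 libraries held 455, 428 and 436 RPKM at 400 ppm and 362, 356 and 399.8 at 650 ppm.

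SI-12 libraries held 397, 355 and 382 RPKM of CCoAOMT2 at 400 ppm and 342, 341 and 325 at 650 ppm. CCoAOMT2 was below every control library for both strains at both CO2 levels. The log2 fold changes were -0.31 (SE 0.06) for SI-9 and -0.53 (SE 0.06) for SI-12 at 400 ppm, and -0.74 (SE 0.06) and -0.89 (SE 0.06) at 650 ppm, with adjusted p between 0.000376 and 3.11e-10. In mycorrhizal roots it fell with elevated CO2, with log2 fold changes of -0.24 in SI-9 roots (SE 0.06, adjusted p = 0.00907) and -0.17 in SI-12 roots (SE 0.06, adjusted p = 0.0427). The fall in SI-12 roots was lost when any 1 of 4 libraries was left out (libraries 1 and 3 at 400 ppm, 2 and 3 at 650 ppm), and that in SI-9 roots without library 2 at 650 ppm or with only the 2 groups compared (adjusted p = 0.0552 and 0.0830).

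CCoAOMT1 ran from 90.6 to 116 RPKM in control roots at 400 ppm, with a median of 101, and held 128, 124, 103, 109 and 106 at 650 ppm, which overlap. SI-9 libraries held 80.9, 75.1 and 95.5 RPKM at 400 ppm and 59.3, 62.3 and 51.5 at 650 ppm. SI-12 libraries held 66.1, 62.8 and 61.7 RPKM at 400 ppm and 77.3, 81.6 and 70.2 at 650 ppm. That change with CO2 was 0.27 (SE 0.11, adjusted p = 0.0573), and it was called when only the 2 groups compared were fitted (0.26, adjusted p = 0.00978). On 23 libraries SI-12 was lower than SI-9 at 400 ppm (-0.40, SE 0.11, adjusted p = 0.00796) and higher at 650 ppm (0.40, SE 0.11, adjusted p = 0.0126). Strain coincides with library number range, and with that range as a block the difference at 400 ppm was -0.19 (adjusted p = 0.204). It was also lost without SI-9 library 3 at 400 ppm (-0.29, adjusted p = 0.0777).

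Against controls, CCoAOMT1 was lower, with log2 fold changes of -0.69 (SE 0.09, adjusted p = 1.06e-05) in SI-12 roots at 400 ppm and -0.98 (SE 0.10, adjusted p = 1.40e-07) in SI-9 roots at 650 ppm. The smaller gaps were -0.29 (SE 0.09, adjusted p = 0.0269) for SI-9 at 400 ppm and -0.58 (SE 0.10, adjusted p = 6.87e-05) for SI-12 at 650 ppm. The call for SI-9 at 400 ppm was lost without control library 2 (adjusted p = 0.0527), without SI-9 library 1 (0.106) or 2 (0.140), and when only the 2 groups compared were fitted (0.0632). SI-9 library 3 at 400 ppm lay within the control range, and the other 3 comparisons had no overlap.

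CCR1 catalyses the first step committed to monolignols and showed the largest CO2 response among the 9 genes in control roots. At 400 ppm its control libraries ran from 155 to 211 RPKM with a median of 182. At 650 ppm libraries 1 and 2 held 482 and 496 RPKM, and libraries 3 to 5 held 334, 365 and 362. All 5 stood far above the libraries at 400 ppm, 2.24-fold over them by the fit (log2 fold change 1.16, SE 0.10, adjusted p = 1.33e-08). The rise was 1.59 among libraries numbered 1 to 12 and 0.81 among those numbered 13 to 24, and both were called.

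In SI-9 roots CCR1 held 192, 155 and 178 RPKM at 400 ppm and 166, 161 and 174 at 650 ppm. In SI-12 roots it held 145, 124 and 136 RPKM at 400 ppm and 156, 173 and 160.2 at 650 ppm. The CO2 change was -0.07 in SI-9 roots (SE 0.14, adjusted p = 0.771), whose groups overlap, and 0.27 in SI-12 roots (SE 0.14, adjusted p = 0.131), whose groups do not. The change in SI-12 roots was called when only the 2 groups compared were fitted (0.27, adjusted p = 0.00341). At 650 ppm CCR1 was 2.44-fold lower than controls in SI-9 roots (log2 fold change -1.29, SE 0.13, adjusted p = 1.60e-07) and 2.50-fold lower in SI-12 roots (-1.32, SE 0.13, adjusted p = 1.00e-07). Those near-equal values hold for the pooled controls. Against controls of the same number range CCR1 was at -1.55 in SI-9 roots and -1.12 in SI-12 roots, both called. At 400 ppm SI-9 roots overlapped the controls (-0.06, SE 0.12, adjusted p = 0.764), and SI-12 roots lay below them (-0.43, SE 0.12, adjusted p = 0.00881).

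F5H1 and F5H2 hydroxylate the guaiacyl ring on the way to syringyl units. F5H2 ran from 206 to 259.7 RPKM in control roots at 400 ppm, with a median of 230.2, and held 204, 213, 206, 224 and 213 at 650 ppm, so the control groups overlapped. SI-9 libraries held 71.6, 101 and 73.2 RPKM at 400 ppm and 115, 114 and 57.8 at 650 ppm. SI-12 libraries held 145, 91.7 and 137 RPKM at 400 ppm and 110.1, 108 and 115 at 650 ppm.

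Every mycorrhizal library thus held less F5H2 than every control library. In SI-9 roots at 400 ppm it was 2.81-fold lower (log2 fold change -1.49, SE 0.18, adjusted p = 5.44e-06), and -1.68 without library 2, the highest of the 3. In SI-9 roots at 650 ppm the log2 fold change was -1.15 (SE 0.18, adjusted p = 4.16e-05). In SI-12 roots it was -0.89 (SE 0.17, adjusted p = 0.000490) at 400 ppm and -0.93 (SE 0.18, adjusted p = 0.000284) at 650 ppm. Elevated CO2 gave no called change of F5H2 in control, SI-9 or SI-12 roots, with log2 fold changes of -0.12 (SE 0.14), 0.22 (SE 0.19) and -0.17 (SE 0.19) and adjusted p of 0.517, 0.450 and 0.529. Without SI-9 library 3 at 650 ppm, the lowest at 57.8 RPKM, the change in SI-9 roots was 0.48 (adjusted p = 0.0221).

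F5H1 held 101 to 114 RPKM in control libraries 1 to 3 at 400 ppm and 62.4 to 70.0 in libraries 4 to 6, with a median of 85.3 over the 6. The 5 control libraries at 650 ppm held 88.7, 102, 89.6, 98.2 and 88.5 RPKM, between those sets. The CO2 change in controls was 0.10 (SE 0.16, adjusted p = 0.640) in all, -0.17 (adjusted p = 0.503) among libraries numbered 1 to 12 and 0.47 (adjusted p = 0.0310) among those numbered 13 to 24.

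SI-12 libraries held 34.2, 28.2 and 34.5 RPKM of F5H1 at 400 ppm and 75.0, 62.5 and 65.9 at 650 ppm. At 400 ppm this was 2.69-fold below controls (log2 fold change -1.43, SE 0.20, adjusted p = 1.52e-05), under both control sets. Against controls of the same number range the difference at 400 ppm was smaller, at -1.04 (adjusted p = 0.000126). Within SI-12 roots F5H1 rose 2.10-fold at elevated CO2 (1.07, SE 0.22, adjusted p = 0.000769). At 650 ppm every SI-12 library was below every control library, without passing the test on 23 libraries (-0.46, SE 0.19, adjusted p = 0.0644). Against controls of the same number range F5H1 passed it, at -0.44 (adjusted p = 0.0371).

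SI-9 libraries held 144, 89.3 and 139 RPKM of F5H1 at 400 ppm and 70.1, 67.6 and 45.2 at 650 ppm. Library 2 at 400 ppm was well below the other 2 of its group and inside the control range. The difference from controls at 400 ppm was 0.51 (SE 0.18, adjusted p = 0.0479) against all 6 controls, 0.70 (adjusted p = 0.0123) without SI-9 library 2, and 0.20 (adjusted p = 0.416) against the 3 controls of the same number range. The test was also missed without SI-9 library 1 (0.39, adjusted p = 0.233) or library 3 (0.42, adjusted p = 0.208), and without any 1 of control libraries 4 to 6 (adjusted p 0.0888 to 0.0902). At 650 ppm every SI-9 library was below every control library (-0.61, SE 0.19, adjusted p = 0.0173), and without SI-9 library 3, the lowest, the difference was -0.44 (adjusted p = 0.107). F5H1 fell 2.03-fold with elevated CO2 in SI-9 roots (-1.02, SE 0.22, adjusted p = 0.00159), and the change was -1.21 (adjusted p = 0.000382) without library 2 at 400 ppm.

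CAD2 carries out the last reduction, from aldehyde to monolignol. Its control libraries ran from 115 to 136 RPKM at 400 ppm, with a median of 123. At 650 ppm libraries 1 and 2 held 229 RPKM each, and libraries 3 to 5 held 153, 151 and 156. The rise with CO2 in controls was 0.57 (SE 0.10, adjusted p = 0.000122) without overlap, and was 0.97 among libraries numbered 1 to 12 and 0.23 (adjusted p = 0.0169) among those numbered 13 to 24.

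SI-9 libraries held 97.4, 91.9 and 94.0 RPKM of CAD2 at 400 ppm and 119.5, 118 and 147 at 650 ppm. SI-12 libraries held 71.7, 69.0 and 75.7 RPKM at 400 ppm and 130.3, 130.6 and 131.6 at 650 ppm. Both strains lay below every control library at each CO2 level. At 400 ppm the log2 fold change was -0.39 (SE 0.12, adjusted p = 0.0239) for SI-9 and -0.78 (SE 0.12, adjusted p = 6.11e-05) for SI-12, and at 650 ppm -0.52 (SE 0.12, adjusted p = 0.00250) and -0.49 (SE 0.12, adjusted p = 0.00361). Against control libraries of the same number range the gaps at 650 ppm were -0.84 for SI-9 (adjusted p = 9.28e-07) and -0.23 for SI-12 (adjusted p = 0.0158), so the near-equal values hold for the pooled controls. The SI-9 difference at 400 ppm was lost when any 1 of the 3 SI-9 libraries was left out, with adjusted p of 0.0575, 0.0681 and 0.0786. Elevated CO2 raised CAD2 in SI-12 roots by 0.86 (SE 0.14, adjusted p = 7.41e-05) and in SI-9 roots by 0.44 (SE 0.14, adjusted p = 0.0239), and the latter was lost without SI-9 library 1, 2 or 3 at 400 ppm or library 3 at 650 ppm (adjusted p 0.0504 to 0.0978).

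Elevated CO2 changed 5 of the 9 genes in each kind of mycorrhizal root. In SI-9 roots C4H1 and CAD2 rose and CCoAOMT1, CCoAOMT2 and F5H1 fell, with 12% of all tested genes called in each direction and 7 of the 9 genes without overlap, against 34.7%. In SI-12 roots C4H1, F5H1 and CAD2 rose and C4H2 and CCoAOMT2 fell, with 17.6% of all tested genes called higher and 16.5% lower and 7 of the 9 genes without overlap, against 54.6%. When each set counted once, both edgeR and DESeq2 called 0 of the 9 in either kind of root. At an unadjusted p under 0.05 edgeR on sets gave 2 of the 9 genes in each, a count not made over all tested genes. After adjustment it called 0% of all tested genes in SI-9 roots and 0.0073% in SI-12 roots. DESeq2 on sets called 3.41% and 5.05% of all tested genes.

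**Figure D3:**
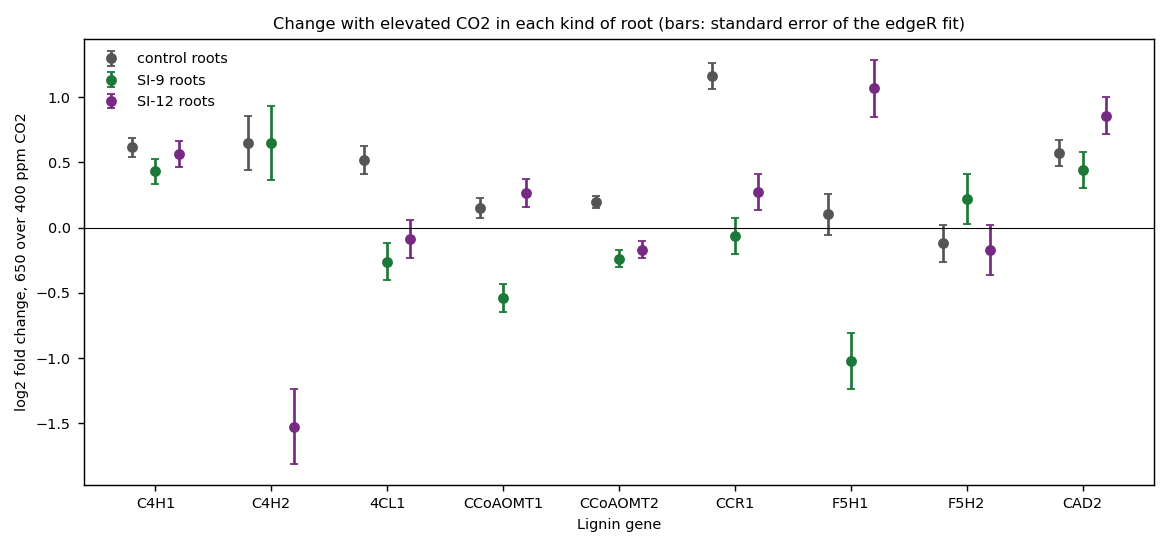
Log2 fold change from 400 to 650 ppm CO2 (vertical axis) of each lignin gene (horizontal axis) in control, SI-9 and SI-12 roots, as points with the standard error of the edgeR fit. CCR1 stands at 1.16 in control roots, -0.07 in SI-9 roots and 0.27 in SI-12 roots, and F5H1 at 0.10, -1.02 and 1.07.

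The change with CO2 differed from that of control roots for 5 of the 9 genes in SI-9 roots, all downwards, with 13.3% of all tested genes called downwards and 14.9% upwards. These were 4CL1 (-0.78, SE 0.18, adjusted p = 0.00272), CCoAOMT1 (-0.69, SE 0.13, adjusted p = 0.000529), CCoAOMT2 (-0.43, SE 0.08, adjusted p = 0.000381), CCR1 (-1.23, SE 0.17, adjusted p = 2.03e-05) and F5H1 (-1.12, SE 0.27, adjusted p = 0.00347). Against control libraries of the same number range CAD2 was called as well, at -0.53 (adjusted p = 0.00195), and CCR1 was at -1.66 (adjusted p = 4.47e-08). With sets as replicates edgeR called 0 of the 9, with 0% of all tested genes called. At an unadjusted p under 0.05 it gave 3 of the 9, a count not made over all tested genes. DESeq2 on sets called CCR1 (adjusted p = 0.0260), with 4.32% of all tested genes called.

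In SI-12 roots the change with CO2 differed from that of controls for 5 genes, 4 downwards and 1 upwards, with 15% and 18.1% of all tested genes called. C4H2 (-2.17, SE 0.36, adjusted p = 9.50e-05), 4CL1 (-0.60, SE 0.18, adjusted p = 0.0130), CCoAOMT2 (-0.36, SE 0.08, adjusted p = 0.00136) and CCR1 (-0.89, SE 0.17, adjusted p = 0.000478) went downwards, and F5H1 upwards (0.97, SE 0.27, adjusted p = 0.00873). Against control libraries of the same number range 4CL1 was at -0.25 (adjusted p = 0.0810) and F5H1 at 0.60 (adjusted p = 0.0551), neither called. C4H2 was at -1.78 (adjusted p = 1.14e-05) and CCR1 at -0.53 (adjusted p = 0.00115) against those libraries, both called. CAD2 was called there at 0.62 (adjusted p = 0.000179). The 2 interactions share the control libraries. Counting each set as 1 replicate, edgeR and DESeq2 each called 0 of the 9. Of all tested genes edgeR called 0.011% and DESeq2 4.53%. At an unadjusted p under 0.05 edgeR gave 2 of the 9, a count not made over all tested genes.

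The CO2 responses of the 2 mycorrhizal groups were also set against each other, a comparison chosen after the data had been seen that uses no control library. F5H1 differed by 2.09 on the log2 scale (SE 0.31, adjusted p = 4.25e-05), with a fall in SI-9 roots and a rise in SI-12 roots. C4H2 differed by -2.17 (SE 0.40, adjusted p = 0.000443) and CCoAOMT1 by 0.81 (SE 0.15, adjusted p = 0.000453). The other 6 genes were not called, and 14% of all tested genes were called upwards and 13.5% downwards. Without SI-9 library 3 at 650 ppm F5H2 (-0.65, adjusted p = 0.0203) and CAD2 (0.53, adjusted p = 0.0484) were called as well, and CAD2 also when only the mycorrhizal groups were fitted (0.42, adjusted p = 0.0219). On sets, edgeR called 0 of the 9, with 0% of all tested genes called. At an unadjusted p under 0.05 it gave 3 of the 9, a count not made over all tested genes. DESeq2 on sets called F5H1 (adjusted p = 0.0141), with 3.85% of all tested genes called.

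Between the strains themselves, 7 of the 9 genes differed at 400 ppm and 2 at 650 ppm. All SI-9 libraries were numbered 1 to 12 and all SI-12 libraries 13 to 24, so strain and number range cannot be told apart without the controls. At 400 ppm SI-12 roots had 2 genes higher than SI-9 roots (C4H2 and F5H2) and 5 lower, with 12.6% and 15.4% of all tested genes called and 6 of the 9 genes without overlap, against 45.8%. The largest difference was in F5H1, 3.83-fold lower in SI-12 roots (log2 fold change -1.94, SE 0.22, adjusted p = 3.19e-06). With the number range as a block, which the controls estimate, 2 genes were called, F5H1 and F5H2, with 24.1% of all tested genes called. The count at 400 ppm was 2 without SI-9 library 1 or 3, 6 without SI-9 library 2, and 4 without SI-12 library 1, 2 or 3. At 650 ppm C4H2 was 2.26-fold lower in SI-12 roots (-1.17, SE 0.28, adjusted p = 0.00779) and CCoAOMT1 was higher, with 8.02% of all tested genes called lower and 6.52% higher and 3 of the 9 genes without overlap, against 36.1%. The CCoAOMT1 call at 650 ppm was lost without SI-9 library 3 (adjusted p = 0.0531) or SI-12 library 2 (0.0646). When each set counted once, edgeR called 0 of the 9 and 0% of all tested genes at each CO2 level. At an unadjusted p under 0.05 it gave 1 of the 9 at 400 ppm and 0 at 650 ppm, a count not made over all tested genes. DESeq2 on sets called F5H1 at 400 ppm (adjusted p = 0.00377) and 0 at 650 ppm, with 2.54% and 1.98% of all tested genes called.

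The make-up of the pairs of related genes also varied over the groups. C4H2 made up 1.46% ± 0.575 (SD, n = 6) of the RPKM of the C4H pair in control roots at 400 ppm and 1.5% ± 0.199 (n = 5) at 650 ppm. Its share was 3.31% ± 0.844 and 4.00% ± 1.59 in SI-9 roots at 400 and 650 ppm, and 6.87% ± 0.477 and 1.70% ± 0.143 in SI-12 roots (n = 3 each). The C4H2 share reached 7.42% at most, and the 3 SI-12 libraries at 400 ppm held the highest shares, from 6.53% upwards, above SI-9 library 3 at 650 ppm with 5.84%.

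**Figure D4:**
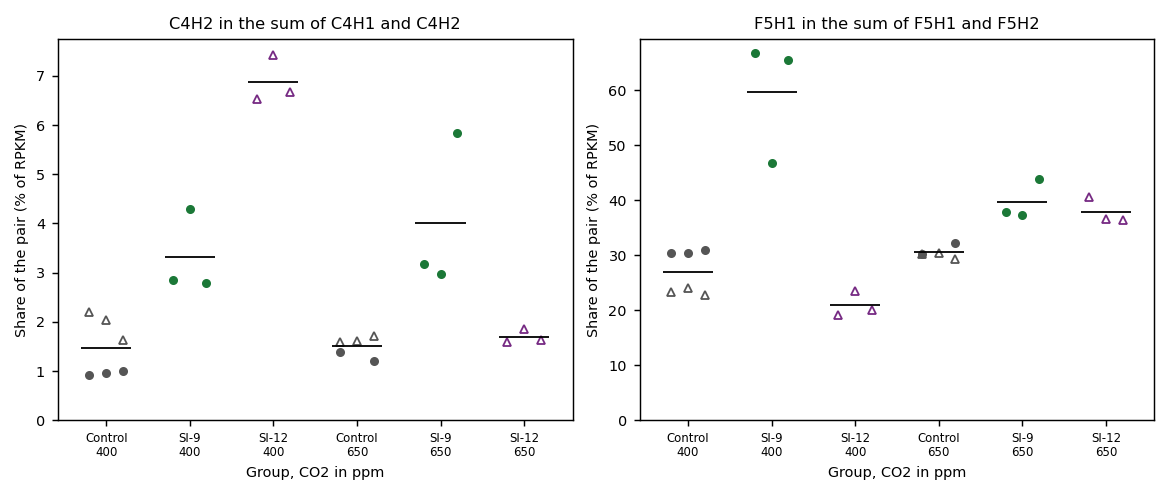
Share of C4H2 in the summed RPKM of C4H1 and C4H2 (left) and of F5H1 in that of F5H1 and F5H2 (right), in percent, for every library of the 6 groups, with filled circles for library numbers 1 to 12, open triangles for 13 to 24 and a line at the group mean. F5H1 makes up 46.8% to 66.8% of the F5H pair in SI-9 roots at 400 ppm and 19.1% to 23.5% in SI-12 roots at 400 ppm.

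F5H1 made up 27.0% ± 3.98 (SD, n = 6) of the RPKM of the F5H pair in control roots at 400 ppm and 30.5% ± 1.06 (n = 5) at 650 ppm. In SI-9 roots at 400 ppm its share was 59.7% ± 11.2, with library 2 at 46.8% as the lowest, and all 3 libraries were above every control. In SI-12 roots at 400 ppm it was 20.9% ± 2.33. At 650 ppm the shares of both strains were above every control library, at 39.7% ± 3.65 in SI-9 roots and 37.9% ± 2.31 in SI-12 roots (n = 3 each). CCoAOMT1 made up between 13.5% and 18.5% of its pair in the 6 group means.

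Across the 6 groups the mean profile of the 9 genes, each centred on its own mean log2 level, was 0.55 in control roots at 650 ppm and 0.12 in those at 400 ppm. It was -0.08 and -0.13 in SI-9 roots and -0.30 and -0.17 in SI-12 roots at 400 and 650 ppm. Among 23487 other genes the 3 with the smallest root mean square distance from this profile were Eucgr.B00141.1 (0.0493), Eucgr.A00904.1 (0.0589) and Eucgr.B02388.1 (0.0610), distances on the log2 scale over 6 group means. The files give no names for them.

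The members were unequally close to each other by the same distance. For each member, all 23495 other genes were ordered by distance, and the place of the nearest other member was noted. That place was 11 for CAD2 (C4H1), 12 for 4CL1 (CCoAOMT2), 18 for C4H1 (CAD2), 26 for CCoAOMT2 (4CL1) and 73 for CCoAOMT1 (4CL1). It was 171 for CCR1 (4CL1), 349 for F5H2 (4CL1) and 1515 for F5H1 (CCoAOMT1). For C4H2 the nearest member, CCoAOMT2, came only at place 16997.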

How the data were processed

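The tables the authors deposited list for every gene a length and 2 counts, of uniquely matching and of all gene reads. They also list an RPKM, which can be rebuilt from the total count, the length and the library's gene reads within 1% for every value deposited. Trimming of the pairs came before an RNA-Seq step, per the file headers of 2 control libraries. The sources used here do not name the aligner, genome build or strand setting.

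Total gene reads were tested with edgeR 4.0.16 (limma 3.58.1, R 4.3.3): quasi-likelihood test, TMM, filterByExpr by group, 2-sided, Benjamini-Hochberg at 0.05 within each comparison. All 23 libraries entered 1 fit with 6 group means, which leaves 17 residual degrees of freedom, over 27386 tested genes that include all 9 members. Standard errors were back-calculated from the test statistic. The fit was tested on simulated data. RPKM and CPM were recomputed from total reads with TMM factors. Figures were drawn with matplotlib 3.10.9.

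Shares of all tested genes called, or without overlap between groups, are from the same fits as the counts of members beside them. No share of all tested genes was counted at an unadjusted p. The counts of members at that limit therefore cannot be set against other genes, and nothing is read from them. Sets joined libraries of a group with a coefficient of variation under 0.2 over genes with at least 50 reads, by single linkage, and their summed counts were refitted with edgeR (3 residual degrees of freedom) and DESeq2 1.42.0. Other alternatives were DESeq2 and its size factors, no filter, unique reads, blocks for replicate number and for library number range, only the groups compared, controls of 1 number range, and each library left out.

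One of the 10 listed genes is not reported here, and all counts, medians and profiles cover the other 9, which are all named. The other genes named are the 3 nearest to the members' mean profile of log2(CPM + 1) group means, centred per gene, among genes with a mean of at least 1 CPM. Members, lists and tests were chosen with earlier results of these data known. DESeq2 on sets, the version with 10 sets, and the comparison of the 2 strains' CO2 responses were added after the data had been seen. Lists of further lignin genes and of tissue markers were not applied, because 0 of 36376 identifiers matched the reference table (ASM1654582v1), and no sequences were used.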

Additional observations from a re-analysis of the deposited data

Results flagged for a closer look

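The change with CO2 differed between kinds of root for the results given here, each by edgeR's test of the difference itself on 23 libraries, with log2 differences. Between SI-9 and control roots it differed for 4CL1 by -0.78, for CCoAOMT1 by -0.69, for CCoAOMT2 by -0.43, for CCR1 by -1.23 and for F5H1 by -1.12. Between SI-12 and control roots it differed for C4H2 by -2.17, for 4CL1 by -0.60, for CCoAOMT2 by -0.36, for CCR1 by -0.89 and for F5H1 by 0.97. Between SI-12 and SI-9 roots it differed for C4H2 by -2.17, for CCoAOMT1 by 0.81 and for F5H1 by 2.09. No library stood out from its group by Dixon's test in the 18 groups of 4 or more libraries examined, 9 genes in 2 control groups. Each control group held 2 sets, and their distance widens the range against which a gap is judged. Mycorrhizal groups, with 3 libraries each, were not examined. The test therefore says nothing on SI-9 library 2 at 400 ppm or SI-9 library 3 at 650 ppm.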

How the results depend on the processing

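No log2 fold change with a call reversed under any alternative. Of the 70 calls on 23 libraries, 18 were lost in at least 1 omission of a single library and 16 in at least 1 other alternative that kept libraries apart; none was lost with unique reads. With 9 sets edgeR called 0 members in each of the 12 comparisons, and again when library 2 of SI-9 roots at 400 ppm was dropped. With that library as a set of its own it called 1 for CO2 in controls, 4 for SI-9 against controls at 650 ppm and 0 elsewhere. DESeq2 on sets called 2 for CO2 in controls, 1 for SI-9 and 3 for SI-12 against controls at 400 ppm, 6 for SI-9 and 3 for SI-12 against controls at 650 ppm, and 0 for CO2 in SI-9 or SI-12 roots. It called 1 for SI-12 against SI-9 at 400 ppm and 0 at 650 ppm, 1 for the interaction of SI-9 with CO2, 0 for that of SI-12, and 1 between the strains' CO2 responses. The set fits pool the spread, so a group of 1 set is assumed to vary like the others.

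With only the groups compared, 3 members were called for CO2 in SI-9 roots and 7 for CO2 in SI-12 roots. No share of all tested genes was counted in those fits, with a library left out or with the replicate block. Whether these counts moved with those of all tested genes was not tested. With the library number range as a block, 2 were called between strains at 400 ppm. Leaving out each library in turn gave 6 to 6 calls for CO2 in controls, 4 to 7 for SI-9 and 7 to 9 for SI-12 against controls at 400 ppm, and 7 to 9 and 7 to 7 at 650 ppm. It gave 4 to 5 for CO2 in SI-9 roots and 4 to 5 in SI-12 roots, 2 to 6 between strains at 400 ppm and 1 to 2 at 650 ppm. The interactions gave 5 to 6 for SI-9 and 5 to 5 for SI-12, and the difference of CO2 responses 3 to 5.

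Replicate numbers gave no sign of pairing: deviations of same-numbered libraries correlated at -0.126 to 0.115 across genes, over 0.1 in 2 of 45 pairs. The deviations were taken from group means, so differences between sets enter them, and pairing inside a set cannot be judged from them. With the replicate number as a block, 5 of the 108 results lost a call and 3 gained one, and 6 members were called for CO2 in controls, 5 for SI-9 against controls at 400 ppm and 8 for SI-12 at 650 ppm. DESeq2 on 23 libraries lost 1 call and gained 1, its size factors lost 2, and no filter lost 3. All members have at least 156 reads in every library. The cause of these changes was not tested, and the set fits also have fewer replicates.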
